A study of Homo sapiens with 4 samples.

Results

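Amino acid and related solute carriers are the membrane proteins that move amino acids, and for some members taurine, creatine or betaine, across the plasma membrane and the lysosomal membrane. They were taken from the gene table by symbol, as every gene of the SLC1, SLC3, SLC6, SLC7, SLC36, SLC38 and SLC43 families that the table lists, whatever its measured values. The choice of these families was made with earlier results of these data known. The table held 37 such genes among 15575, and 25 of them had enough counts to be tested among 13172 genes in all. The cells were U251, an established human glioblastoma (GBM) line, in which RNA-seq was used to ask what loss of PRMT3, a protein arginine methyltransferase, does to the transcriptome. The 2 Ctrl libraries came from U251 cells that received the lentiviral control vector (pGreen in the labels, a control shRNA in the study's methods). The 2 PRMT3-KD libraries came from U251 cells that received a lentiviral PRMT3 shRNA, and both groups were collected 72 h after transduction. Which PRMT3 hairpin was used for these libraries is not given in the sources used here, and neither is whether the libraries of a group came from separate cultures, so the p-values measure only the spread between these libraries.

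Cells take up most amino acids through exchangers, which trade an internal for an external amino acid, and through sodium-coupled carriers, which load the cell from outside. The best known exchanger in tumors is LAT1, made of the light chain SLC7A5 and the heavy chain SLC3A2, which brings in leucine and other large neutral amino acids in return for glutamine. The same heavy chain also carries xCT (SLC7A11), which imports cystine for glutathione synthesis and releases glutamate, a release for which gliomas are known. Amino acid supply is read inside the cell by the mTORC1 pathway at the lysosome and by the transcription factor ATF4, whose known targets include several of these carriers.

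Total counts ranged from 24804250 to 29756313 per library, and values are given as CPM (counts relative to the size of the library) after scaling with edgeR's TMM factors, which ranged from 0.955 to 1.02. PRMT3 (ENSG00000185238) had 19.3 and 19.5 CPM in the Ctrl libraries and 3.03 and 1.58 CPM in the PRMT3-KD libraries, a log2 fold change of -3.08 (SE 0.314) with an adjusted p of 0.0177 (edgeR, quasi-likelihood, Benjamini-Hochberg). The groups differed in how alike their libraries were. Chi-square per degree of freedom, which is 1 under counting error alone, was 1.42 between the Ctrl libraries and 63.6 between the PRMT3-KD libraries. The median absolute log2 difference was 0.051 between the Ctrl libraries and 0.222 between the PRMT3-KD libraries over all genes tested, and 0.305 between the PRMT3-KD libraries over the 25 carriers. Of the astroglial and glioma markers, 10 of 11 were listed (OLIG2 was not), with summed levels of 9866 and 9885 CPM in Ctrl and 8429 and 9417 CPM in PRMT3-KD libraries, and most of each sum was VIM. Of these markers SOX9 was called lower (log2 fold change -0.65, adjusted p = 0.0215), AQP4 had at most 1 count, and the other 8, among them GFAP (13.1, 14.3, 1.26 and 5.39 CPM) and ALDH1L1 (0.180, 0.254, 0.512 and 0.563 CPM), were not called. Summed markers of neurons (3 of 4 listed) lay between 61.3 and 68.5 CPM, of immune cells (3 of 4) between 29.5 and 33.4 CPM, with 2 to 7 counts of PTPRC, and of endothelial cells (2 of 3) between 6.26 and 27.9 CPM. Fibroblast markers (3 of 3) summed to 3557 and 3575 CPM in Ctrl and to 3744 and 6671 CPM in PRMT3-KD libraries, and most of each sum was COL1A2. Endothelial and fibroblast sums were both highest in PRMT3-KD library 2, and their part in the results was not tested. Every library was labeled U251, and a marker sum does not by itself show that cells of that type were present. In bulk RNA, fewer cells expressing a gene and less RNA per cell cannot be told apart.

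In Ctrl cells the carriers spanned a wide range of levels, with 10 of 37 above 100 CPM. Divided by exon length, the highest level was that of SLC7A5, with 101 and 104 CPM per kilobase of exon in the 2 Ctrl libraries. SLC1A5 (ASCT2), the exchanger for glutamine and small neutral amino acids, followed at 89.4 and 91.8 CPM per kilobase, and SLC38A2 (SNAT2), a sodium-coupled carrier of small neutral amino acids, at 81.3 and 82.4 CPM per kilobase. The ranges of these 3 carriers over the Ctrl libraries did not overlap. SLC7A1, the main arginine and lysine carrier, had 33.6 and 32.7 and SLC3A2 33.7 and 32.4 CPM per kilobase, so these neighbours in the order could not be separated. Mean Ctrl levels per kilobase were 29.6 for SLC7A11, 26.5 for the taurine carrier SLC6A6, 20.1 for SLC7A6, 18.5 for SLC38A1 and 17.3 for the creatine carrier SLC6A8. The order depends on the length used. With the length of the canonical transcript in place of all annotated exons, 9 of these 10 carriers were again among the first 10. SLC38A10 took the place of SLC38A1. The annotated exons of SLC3A2 are far longer than its main transcript, and it moved up to rank 1 at 112 CPM per kilobase. SLC38A2 was next at 111, with overlapping ranges over the Ctrl libraries. SLC7A5 was then at rank 3 with 107 and SLC1A5 at rank 4 with 105, and their ranges overlapped as well. SLC7A5 thus came first only with the length of all annotated exons.

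**Figure D1:**
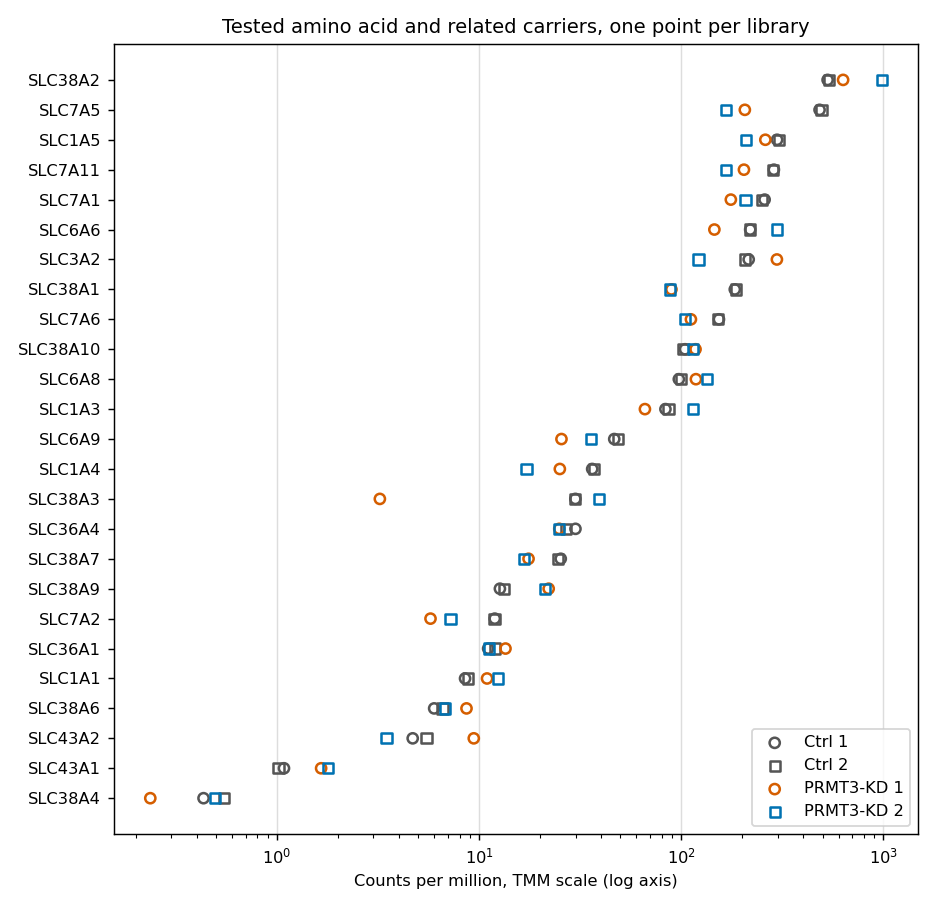
Level of the 25 tested carriers in each library, in CPM on a log axis, ordered by the Ctrl mean; grey symbols are Ctrl libraries and coloured symbols PRMT3-KD libraries, 1 symbol per library. The grey symbols nearly coincide for most carriers, while the coloured symbols lie to the left for SLC7A5 (206 and 166 against 483 and 494 CPM) and on opposite sides for SLC3A2 and SLC38A3.

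The remaining 12 carriers were not tested because of low counts. They were SLC1A2, SLC3A1, SLC6A12, SLC6A13, SLC6A16, SLC6A20, SLC7A4, SLC7A7, SLC7A8, SLC7A9, SLC38A5 and SLC43A3, with 0 to 14 counts in any library. Among them are the main glutamate carrier of brain astrocytes, SLC1A2, and the heavy chain SLC3A1 with its light chain SLC7A9, which are best known from kidney. SLC7A7 and SLC7A8, light chains that pair with SLC3A2, had 5, 8, 14 and 8 and 9, 8, 13 and 7 counts in Ctrl 1, Ctrl 2, PRMT3-KD 1 and PRMT3-KD 2, far below the light chains SLC7A5, SLC7A6 and SLC7A11. A count of 0, as for SLC7A4 in 3 of 4 libraries, allows a level of up to 0.106 to 0.109 CPM (3 counts, counting error only). SLC6A20, a proline carrier, had 3, 5, 12 and 2 counts in the same order, and was called higher when PRMT3-KD library 2 was left out. With all 4 libraries its groups overlap. When the filter was lowered to 1 count in any library, so that all 37 carriers were tested, the calls were the same 5 as with the filter and none of these 12, for which a change was not detectable at this depth with all 4 libraries.

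Between PRMT3-KD and Ctrl cells, 4 of the 25 tested carriers were called lower and 1 higher, where a call requires more than a 1.5-fold change and, in edgeR's test, an adjusted p under 0.05. The carriers called lower were SLC7A5, SLC38A1, SLC7A2 and SLC7A11, and the carrier called higher was SLC38A9, a lysosomal arginine sensor. Over all genes tested, 5.97% were called lower and 4.97% higher. Both PRMT3-KD libraries lay below both Ctrl libraries for 11 carriers (33.8% of all genes did) and above both for 7 (33.3% of all genes), and for 5 carriers the PRMT3-KD libraries lay on opposite sides of the Ctrl libraries (19.5% of all genes). An adjusted p under 0.05 with a change of any size was found for 7 carriers, against 17.3% of all genes. These were 6 lower and 1 higher, the additional 2 being SLC7A6 and SLC38A7. The median log2 fold change was -0.19 over the 25 carriers and 0.0055 over all genes tested. With 2 libraries a group, an exact permutation test of a single gene cannot go below p = 0.333, and each adjusted p given below therefore came from a model fitted to all genes together, edgeR's unless another tool is named. All calls need both Ctrl libraries: without Ctrl library 1 or 2, edgeR called 0 genes and 0 carriers, with 8 and 7 carriers at an unadjusted p under 0.05.

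**Figure D2:**
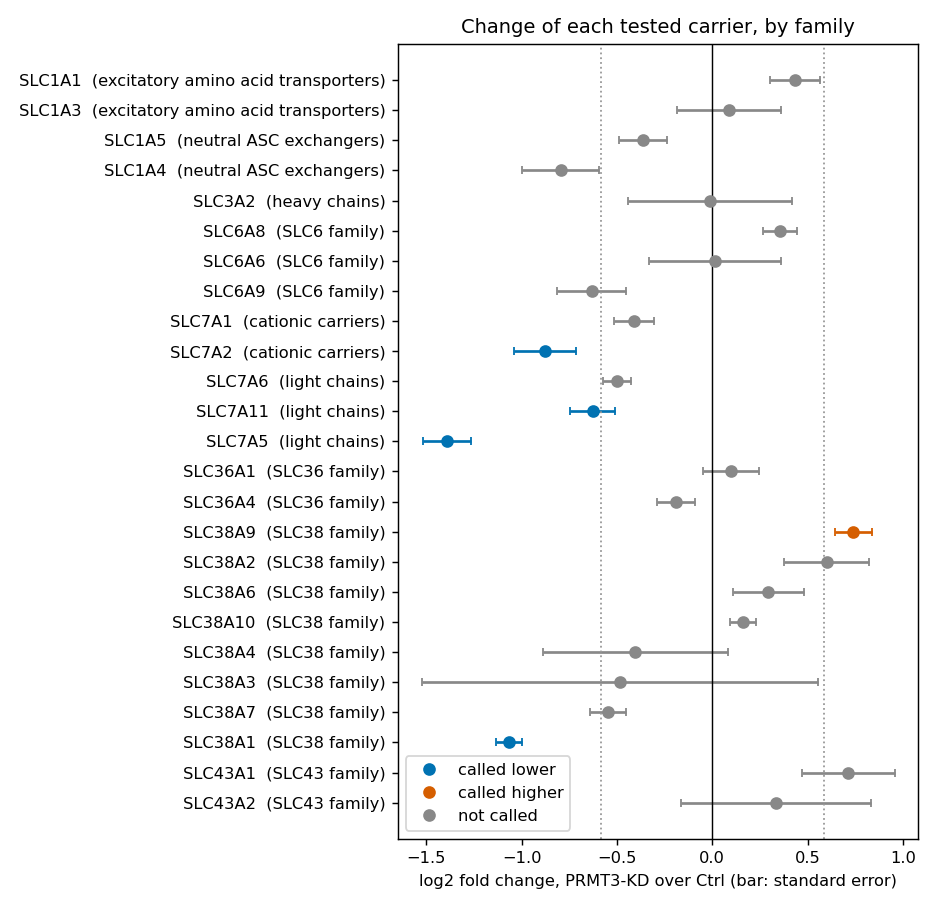
Log2 fold change of each tested carrier (PRMT3-KD over Ctrl, 2 libraries each), with its standard error as a bar, grouped by family; dotted lines mark 1.5-fold, and blue, orange and grey points are carriers called lower, called higher and not called. The blue points run from -1.39 (SLC7A5) to -0.63 (SLC7A11), the single orange point is SLC38A9 at 0.74, and the widest bar is that of SLC38A3 (SE 1.04).

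SLC7A5 (ENSG00000103257, GRCh37 chromosome 16 from 87863629 to 87903113, minus strand, 10 exons in the canonical transcript), the LAT1 light chain, showed the largest decrease among the carriers called. Its level was 483 CPM in Ctrl library 1, 494 CPM in Ctrl library 2, 206 CPM in PRMT3-KD library 1 and 166 CPM in PRMT3-KD library 2. Both PRMT3-KD libraries thus lay far below the Ctrl libraries, and the gap was many times the difference within either group. The mean fell from 489 ± 8.0 CPM (SD, n = 2) to 186 ± 28.3 CPM (SD, n = 2), to 38.1% of Ctrl, with a log2 fold change of -1.39 (SE 0.125, adjusted p = 0.0154 from edgeR). Without Ctrl library 1 or 2 the log2 fold change was little altered, but the adjusted p was 0.0951 and 0.0820. The annotation holds 2 pseudogenes of SLC7A5, SLC7A5P1 and SLC7A5P2, and an antisense gene overlaps its exons, and reads of these could not be told apart from those of SLC7A5 if the counting did not use strand or unique matches, which the sources used here do not state. Exons of SLC7A11, SLC7A6, SLC1A3, SLC6A6, SLC6A8, SLC6A9, SLC38A6 and SLC38A10 also overlap genes on the opposite strand. Sequences of SLC7A5 that hold motifs looked for in all carriers are shown here, with the motif in capitals. The first is an E-box (CACGTG), the letters bound by MYC and other bHLH factors, in a RefSeq promoter window (GRCh38.p14, chr16:87869632-87869637, read on the gene's strand). The second is the 7-base sequence CAGCTCA in the 3′ UTR (GENCODE 44 on GRCh37, chr16:87866478-87866484, minus strand). CAGCTCA had been picked out earlier from genes lower in these same PRMT3-KD libraries, so its presence is no independent evidence.
SLC7A5 promoter E-box: ccggacgacgCACGTGctccgagctg
SLC7A5 3′ UTR: ccgcaacccaCAGCTCAgctgcccatc

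The other tested light chains that pair with SLC3A2 were lower as well, by less. SLC7A11 (ENSG00000151012, chromosome 4 from 139085251 to 139163503, minus strand), the cystine and glutamate exchanger, had 287 and 285 CPM in the Ctrl libraries and 204 and 166 CPM in the PRMT3-KD libraries. The groups did not overlap, and PRMT3-KD library 2 was the lower of its group. In the mean it fell from 286 ± 1.68 CPM in Ctrl to 185 ± 27.0 CPM in PRMT3-KD (SD over 2 libraries each), which is -0.63 on the log2 scale (SE 0.120, adjusted p = 0.0376, edgeR). The call was lost with 1 other scaling and without any of 3 libraries: with library totals in place of TMM factors the adjusted p was 0.0566 (edgeR), without Ctrl library 1 or 2 it was 0.291 and 0.280, and without PRMT3-KD library 2 the log2 fold change was -0.49, under 1.5-fold. SLC7A6 (y+LAT2), which exports arginine in exchange for neutral amino acids, had 154 and 152 CPM in Ctrl and 112 and 105 CPM in PRMT3-KD libraries. Its change passed the test on adjusted p but was under 1.5-fold (log2 fold change -0.50, SE 0.0738, adjusted p = 0.0248, edgeR). Summed over the 6 light chains, the level was 924 and 932 CPM in the Ctrl libraries and 523 and 437 CPM in the PRMT3-KD libraries.

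The heavy chain SLC3A2, which the light chains need to reach the cell surface, did not share this pattern. It had 216 and 207 CPM in the Ctrl libraries, 297 CPM in PRMT3-KD library 1 and 122 CPM in PRMT3-KD library 2. The PRMT3-KD libraries thus lay on opposite sides of the Ctrl libraries, and the fitted log2 fold change of -0.013 (SE 0.430, adjusted p = 0.986, edgeR) is the mean of unlike values. Taken singly against the Ctrl mean, the PRMT3-KD libraries differed by 0.49 and -0.79 on the log2 scale, and 191 of the 13172 genes tested had a larger difference between the PRMT3-KD libraries. SLC7A5 was thus low in both PRMT3-KD libraries, while SLC3A2 was high in one and low in the other.

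Among the cationic carriers, SLC7A2 (ENSG00000003989), an arginine and lysine carrier, had 11.9 CPM in each Ctrl library and 5.75 and 7.22 CPM in the PRMT3-KD libraries. Both PRMT3-KD values lay well below the Ctrl values, and the mean fell to 6.48 ± 1.04 CPM (SD, n = 2), a log2 fold change of -0.88 (SE 0.163, adjusted p = 0.0357, edgeR), on 146 to 331 counts per library. SLC7A1, the more abundant carrier of the same substrates, had 258 and 252 CPM in Ctrl and 176 and 208 CPM in PRMT3-KD libraries. It also lay lower in both PRMT3-KD libraries, but its log2 fold change of -0.41 (SE 0.105) had an adjusted p of 0.0631 in edgeR's test. The adjusted p was 0.0415 with DESeq2 and 0.0203 with limma-voom, where the change was likewise under 1.5-fold. The third listed cationic carrier, SLC7A4, had 1 count in all.

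The SLC38 family of sodium-coupled neutral amino acid carriers, 8 of 9 tested, held members called in both directions. SLC38A1 (ENSG00000111371, chromosome 12 from 46576846 to 46663800, minus strand), the SNAT1 carrier that loads cells with glutamine, had 184 and 187 CPM in the Ctrl libraries and 89.4 and 87.8 CPM in the PRMT3-KD libraries. It was the most even of the decreases, since the libraries of each group differed by only a few percent. The Ctrl mean of 185 ± 1.93 CPM was reduced to 88.6 ± 1.16 CPM (SD, n = 2 per group), 47.8% of Ctrl, with a log2 fold change of -1.06 (SE 0.0679, adjusted p = 0.0140, edgeR). Without Ctrl library 1 or 2 the adjusted p was 0.114 and 0.0996, while the log2 fold change stayed between -1.08 and -1.06 whichever library was left out. SLC38A1 was 1 of 6 carriers with a promoter window that matched the composite C/EBP-ATF motif (TGATGNAAN), through which ATF4 binds many of its targets. The match lay at chr12:46266512-46266520 of GRCh38.p14, in 1 of the gene's windows and not in another, chr12:46267938-46268237. SLC38A1 also has a CAGCTCA in its 3′ UTR, at chr12:46582359-46582365 of GRCh37 on the minus strand, which is again no independent evidence. Both sequences are shown with the motif in capitals.
SLC38A1 promoter: cagacccgaaTGATGAAAAgggatcagct
SLC38A1 3′ UTR: tactgatgttCAGCTCAcactatctgt

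SLC38A2, a close relative of SLC38A1 and its neighbour on chromosome 12, had 529 and 536 CPM in Ctrl libraries and 632 and 982 CPM in PRMT3-KD libraries. Both PRMT3-KD libraries lay above the Ctrl libraries, the second much further than the first. The log2 fold change of 0.60 (SE 0.223) did not pass edgeR's test (adjusted p = 0.132), although it did with DESeq2 (adjusted p = 0.0372). With limma-voom the adjusted p was 0.0243, but the log2 fold change of 0.57 was under 1.5-fold. SLC38A3, a glutamine, histidine and asparagine carrier, was the carrier on which the PRMT3-KD libraries differed most, with 29.9 and 29.8 CPM in Ctrl, 3.23 CPM in PRMT3-KD library 1 and 39.2 CPM in PRMT3-KD library 2. These values rest on 829, 821, 82 and 1115 counts, far more apart than counting error gives, and 4 of the 13172 genes tested had a larger difference between the PRMT3-KD libraries. Its fitted log2 fold change was -0.49 (SE 1.04, adjusted p = 0.766, edgeR).

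Lysosomal members of the SLC38 family stood on both sides. SLC38A9 (ENSG00000177058, chromosome 5 from 54921673 to 55069022, minus strand), which senses arginine in the lysosome and signals to mTORC1 through the Rag GTPases, had 12.7 and 13.2 CPM in the Ctrl libraries and 22.1 and 21.2 CPM in the PRMT3-KD libraries. The groups were well apart and each was tight. The level rose 1.67-fold (log2 fold change 0.74, SE 0.0990, adjusted p = 0.0215, edgeR), on 351 to 602 counts per library. SLC38A7, which exports glutamine and asparagine from lysosomes, had 25.3 and 24.6 CPM in Ctrl and 17.6 and 16.7 CPM in PRMT3-KD libraries. It was lower in both, and its change of -0.54 on the log2 scale (SE 0.0939) passed edgeR's test (adjusted p = 0.0319) while staying under 1.5-fold. SLC38A10, SLC38A6 and SLC38A4 had changes of 0.16, 0.29 and -0.40 on the log2 scale (edgeR, adjusted p = 0.171, 0.319 and 0.588). Summed over the family, 3 of 4 libraries lay between 891 and 901 CPM and PRMT3-KD library 2 was at 1268 CPM, most of which was SLC38A2.

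**Figure D3:**
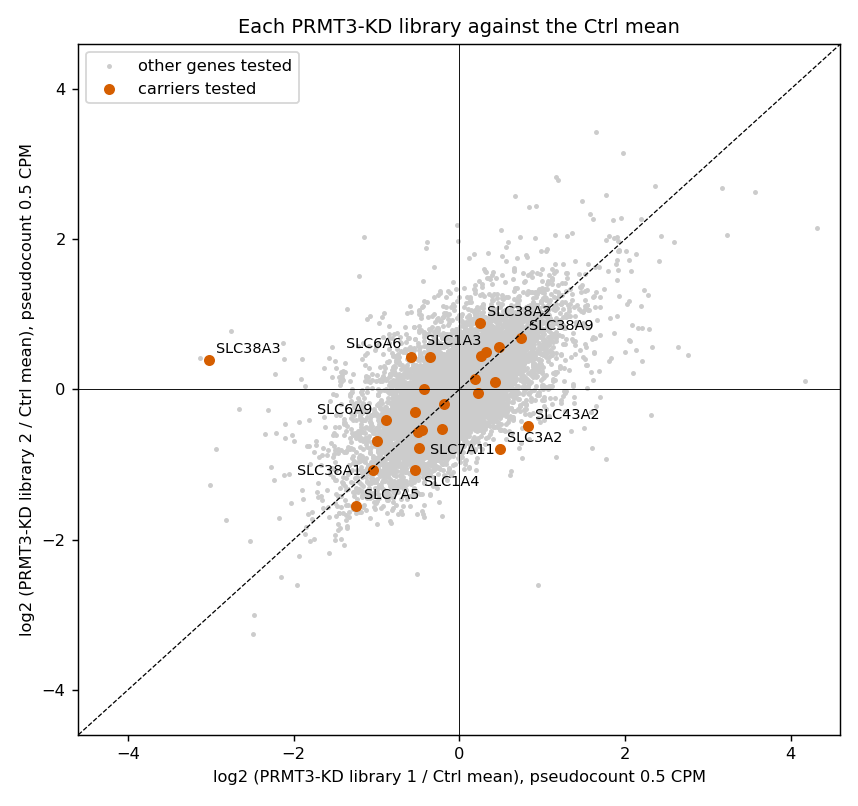
Log2 ratio of each PRMT3-KD library to the mean of the Ctrl libraries (pseudocount 0.5 CPM), library 1 on the horizontal and library 2 on the vertical axis, for the 25 tested carriers (orange) and all other genes tested (grey); the dashed line marks equal ratios. SLC38A1 and SLC38A9 lie near the dashed line, and SLC7A5 (-1.24 and -1.55) lies somewhat below it. SLC38A3 (-3.03 and 0.39), SLC3A2 (0.49 and -0.79) and SLC43A2 (0.83 and -0.49) lie in the quadrants where the libraries had opposite signs.

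In the SLC1 family, the neutral exchangers lay lower in both PRMT3-KD libraries and the glutamate carriers did not. SLC1A4 (ASCT1), which exchanges serine, alanine and other small neutral amino acids, had 36.2 and 36.9 CPM in Ctrl libraries and 25.1 and 17.1 CPM in PRMT3-KD libraries. Both PRMT3-KD libraries lay below the Ctrl libraries but apart from each other, and the log2 fold change of -0.79 (SE 0.201) had an adjusted p of 0.0621 in edgeR's test. With DESeq2 and limma-voom, SLC1A4 was called lower (adjusted p = 0.00519 and 0.0145). SLC1A5 had 298 and 306 CPM in Ctrl and 260 and 209 CPM in PRMT3-KD libraries, with a log2 fold change of -0.36 (SE 0.126, adjusted p = 0.115, edgeR). The glutamate and aspartate carrier SLC1A3, known from astrocytes and glioma, had 83.5 and 86.5 CPM in Ctrl, 66.1 CPM in PRMT3-KD library 1 and 114 CPM in PRMT3-KD library 2. It was one more carrier with the PRMT3-KD libraries on opposite sides of Ctrl (log2 fold change 0.088, SE 0.273, adjusted p = 0.843, edgeR). The less abundant glutamate carrier SLC1A1 had 8.52 and 8.80 CPM in Ctrl and 10.9 and 12.4 CPM in PRMT3-KD libraries (log2 fold change 0.43, adjusted p = 0.0910, edgeR).

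Of the SLC6 family, which couples uptake to sodium and chloride, 3 of 7 listed members were tested. The taurine carrier SLC6A6 had 219 CPM in each Ctrl library, 146 CPM in PRMT3-KD library 1 and 296 CPM in PRMT3-KD library 2. The PRMT3-KD libraries lay on opposite sides of Ctrl, and the log2 fold change of 0.013 (SE 0.345, adjusted p = 0.983, edgeR) changed sign with the scaling. SLC6A8, the creatine carrier, had 97.2 and 99.7 CPM in Ctrl and 118 and 134 CPM in PRMT3-KD libraries, above Ctrl in both, with a log2 fold change of 0.35 (SE 0.0905, adjusted p = 0.0635, edgeR). The glycine carrier SLC6A9 had 46.6 and 48.8 CPM in Ctrl and 25.5 and 35.9 CPM in PRMT3-KD libraries. It lay below Ctrl in both, with a log2 fold change of -0.63 (SE 0.182, adjusted p = 0.0807, edgeR), and was called lower with DESeq2 and limma-voom (adjusted p = 0.0241 and 0.0272).

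The SLC36 family, proton-coupled carriers found partly on lysosomes, and the SLC43 family, in which SLC43A1 and SLC43A2 are facilitative carriers of large neutral amino acids, held no called member. The log2 fold change was 0.097 for SLC36A1 (edgeR, adjusted p = 0.669) and -0.19 for SLC36A4 (adjusted p = 0.237). SLC43A1 had about 1 CPM in Ctrl cells (1.08 and 1.02 CPM) and 1.65 and 1.80 CPM in PRMT3-KD cells, with a log2 fold change of 0.71 (SE 0.243, adjusted p = 0.111, edgeR). SLC43A2 had 4.69 and 5.49 CPM in Ctrl, 9.41 CPM in PRMT3-KD library 1 and 3.48 CPM in PRMT3-KD library 2. Like SLC3A2, it was high in the first and low in the second PRMT3-KD library (log2 fold change 0.34, SE 0.499, adjusted p = 0.664, edgeR).

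Added up, the 37 carriers had 3139 and 3155 CPM in the Ctrl libraries and 2596 and 2904 CPM in the PRMT3-KD libraries. This was 0.317% and 0.319% of all counts in Ctrl and 0.266% and 0.277% in PRMT3-KD libraries. The difference between the groups lay mainly in the light chains, which summed to 924 and 932 against 523 and 437 CPM. The ASC exchangers had 334 and 343 CPM in Ctrl and 286 and 226 CPM in PRMT3-KD libraries, and the cationic carriers 270 and 264 CPM in Ctrl and 182 and 215 CPM in PRMT3-KD libraries, so that these sums were lower in both PRMT3-KD libraries too. The sums of the SLC6 family (363, 368, 290 and 467 CPM in Ctrl 1, Ctrl 2, PRMT3-KD 1 and PRMT3-KD 2) and of the excitatory amino acid transporters (92.2, 95.7, 77.3 and 127 CPM) lay on opposite sides of Ctrl in the PRMT3-KD libraries. Each sum is set by its most abundant members.

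**Figure D4:**
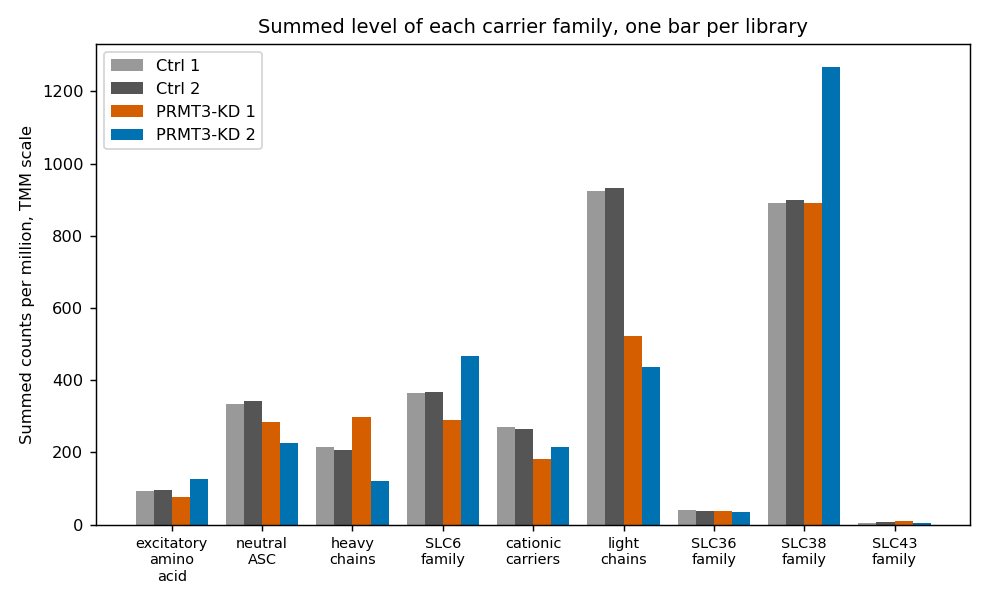
Summed level of each carrier family in CPM, 1 bar per library (grey Ctrl, coloured PRMT3-KD), on an axis that starts at 0. The light chain bars are lower in both PRMT3-KD libraries (523 and 437 against 924 and 932 CPM), while the SLC38 bars differ only in PRMT3-KD library 2 (1268 CPM).

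Genes that act with these carriers were followed through lists drawn up by pathway. The number called on each list is to be set beside the shares over all genes tested, 5.97% lower and 4.97% higher. Of the 35 tested genes for amino acid sensing and mTORC1 signaling, 3 were called lower and 3 higher, and their median log2 fold change was -0.0069. Those called higher were RRAGD and RRAGC, the Rag GTPases that recruit mTORC1 to the lysosome and partners of SLC38A9, and TSC1, a brake on mTORC1. RRAGD had 6.93 and 7.67 CPM in Ctrl and 15.5 and 16.1 CPM in PRMT3-KD libraries, a log2 fold change of 1.11 (SE 0.123, adjusted p = 0.0188, edgeR). For RRAGC and TSC1 the log2 fold changes were 0.63 and 0.61 (adjusted p = 0.0211 and 0.0244, edgeR). Those called lower were NPRL3, a part of the GATOR1 complex that holds mTORC1 back, FNIP2, a folliculin partner that acts on RRAGC and RRAGD, and MLST8, an mTOR subunit. Their log2 fold changes were -0.85, -0.78 and -0.69 (adjusted p = 0.0230, 0.0358 and 0.0193, edgeR). Genes called on this list thus include activators and inhibitors in both directions.

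Of the 29 tested genes of the amino acid response around ATF4, 2 were called lower and 1 higher, with a median log2 fold change of -0.0085. These counts are near the shares of all genes tested (5.97% lower and 4.97% higher). CEBPG, a dimer partner of ATF4, had a log2 fold change of -1.15 (adjusted p = 0.0374, edgeR), and ALDH18A1, the first enzyme of proline synthesis, one of -0.66 (adjusted p = 0.0203, edgeR). NUPR1, a stress-induced chromatin protein, was called higher with a log2 fold change of 0.76 (edgeR, adjusted p = 0.0472). The count called higher depended on the test, with 6 genes in DESeq2, 5 in limma-voom and 0 with library totals only. The level of ATF4 mRNA itself was 237 and 232 CPM in Ctrl and 283 and 295 CPM in PRMT3-KD libraries (log2 fold change 0.30, adjusted p = 0.0515, edgeR). On this list, 21 of 29 genes were higher in PRMT3-KD library 1 than in library 2, against 7065 of the 13172 genes tested. The same held for 24 of 35 genes on the mTORC1 list and 16 of 22 on the glutamine, glutamate and aspartate enzyme list. It held for 12 of 24 genes on the branched-chain, arginine, serine and creatine list and for 15 of 24 other carriers. On the ATF4 list the median log2 ratio to the Ctrl mean was 0.0996 in library 1 and -0.227 in library 2. ASNS, asparagine synthetase, had 48.7 and 47.4 CPM in Ctrl, 79.5 CPM in PRMT3-KD library 1 and 27.7 CPM in PRMT3-KD library 2. CHAC1, a glutathione-degrading enzyme, had 10.3, 9.20, 16.6 and 7.15 CPM in the same order, and DDIT3, a stress transcription factor, 17.6, 17.4, 30.6 and 14.5 CPM. These 3 genes, named after their values were seen, were split between the PRMT3-KD libraries in the same way as SLC3A2. So were PSAT1, GPT2 and VEGFA, and by small margins ALDH1L2 and EIF4EBP1. Other genes of the list, also named after their values were seen, were not. SESN2, STC2 and PPP1R15A lay above Ctrl in both PRMT3-KD libraries, and TRIB3 lay below Ctrl in both. CTH lay above Ctrl in both and was higher in library 2 than in library 1.

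Among the 22 tested enzymes of glutamine, glutamate and aspartate metabolism, 3 were called lower (5.97% of all genes tested were), with a median log2 fold change of -0.11 over the list. They were ALDH18A1, CAD, which starts pyrimidine synthesis from glutamine (log2 fold change -0.85, adjusted p = 0.0198, edgeR), and PYCR3, a proline synthesis enzyme (log2 fold change -1.19, adjusted p = 0.0443, edgeR). CAD had 138 and 137 CPM in Ctrl and 82.4 and 70.5 CPM in PRMT3-KD libraries. The number called higher on this list was 0 with edgeR (also 0 at an unadjusted p under 0.05 with over 1.5-fold), and 0 with DESeq2 and limma-voom. Of 24 tested enzymes of branched-chain amino acid, arginine, serine and creatine metabolism, only SHMT1, which links serine and glycine to folate, was called lower. It had 45.0 and 44.3 CPM in Ctrl and 24.2 and 24.1 CPM in PRMT3-KD libraries, with a log2 fold change of -0.89 (adjusted p = 0.0157, edgeR). Called higher on that list were 0 genes with edgeR (1 at an unadjusted p under 0.05 with over 1.5-fold) and 1 each with DESeq2 and limma-voom. Of 24 tested mitochondrial and other amino acid carriers outside the families above, SLC25A29, a mitochondrial carrier of basic amino acids, was called lower (log2 fold change -0.63, adjusted p = 0.0224, edgeR). Their median log2 fold change was 0.26, above the 0.0055 of all genes, although 0 were called higher with edgeR (3 at an unadjusted p under 0.05 with over 1.5-fold), 1 with DESeq2 and 0 with limma-voom.

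Promoter sequences were read for features that the choice of carriers had not used. RefSeq promoter windows of GRCh38.p14, each 300 bases long and reaching from upstream of a transcript start to just inside the transcript, were found for 21 of the 25 tested carriers, 37 windows in all. For SLC38A3, SLC6A6, SLC7A11 and SLC7A2 there was no entry. The composite C/EBP-ATF motif TGATGNAAN, on either strand, was in 6 of 37 windows (16.2%) and in 3.61% of all 35116 windows. The 37 windows are of genes tested in these cells, while the 35116 were not limited to such genes. The shares thus come from unlike groups of promoters, and how far this sets the difference was not tested. The 6 windows belong to SLC1A3, SLC1A4, SLC1A5, SLC38A1, SLC3A2 and SLC7A1, of which SLC38A1 alone was called. All of these but SLC7A1 also have other windows without the motif, and which transcript start these cells used was not examined. SLC1A4, SLC1A5 and SLC7A1 lay below Ctrl in both PRMT3-KD libraries without passing the test, and SLC1A3 and SLC3A2 were split between the libraries. The 5 windows other than that of SLC38A1 are shown so that the match and its flanks can be compared, each read on the gene's strand, with the motif in capitals (for SLC1A4 and SLC3A2 it stands on the opposite strand, so the capitals are its reverse complement). Their capitals lie at chr5:36596368-36596376 (SLC1A3), chr2:64989391-64989399 (SLC1A4), chr19:46784903-46784911 (SLC1A5), chr11:62881735-62881743 (SLC3A2) and chr13:29595673-29595681 (SLC7A1).
SLC1A3 promoter: aggaaatgacTGATGCAAAgcagggttaa
SLC1A4 promoter: gcggctcccgTTTGCATCAtctccagccg
SLC1A5 promoter: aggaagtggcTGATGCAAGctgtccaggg
SLC3A2 promoter: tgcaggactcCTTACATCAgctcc
SLC7A1 promoter: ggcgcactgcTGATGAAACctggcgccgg

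Other motifs were counted in the same windows, with the same limit on comparing the shares. The antioxidant response element core TGACNNNGC was in 6 of the 37 windows (16.2%) and in 13.3% of all windows, and the E-box CACGTG in 5 (13.5%) and in 7.26% of all windows. The hypoxia response element cores ACGTG and GCGTG were in 11 (29.7%) and 22 (59.5%) of the 37 windows and in 21.4% and 36.5% of all windows. Every CACGTG also holds ACGTG, so these counts overlap. The windows of 1 gene can share bases as well. A match to these letters is a description of the sequence and not of binding.

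The 7-base sequence CAGCTCA was looked for in 3′ UTRs because an earlier analysis of these same libraries had picked it out from genes that were lower in PRMT3-KD cells, so its counts are no independent evidence. It was in the canonical 3′ UTR of 8 of the 25 tested carriers (32%) and of 2214 of 12619 genes (17.5%). The median 3′ UTR of carriers with it was longer (2611.5 against 1940 bases), as it was over all genes (3215.5 against 1136 bases). The median log2 fold change was -0.45 for the 8 carriers with it and -0.013 for the 17 without, and over all genes -0.11 with it and 0.034 without. Of the 4 carriers called lower, SLC7A5 and SLC38A1 have 1 copy each and SLC7A2 and SLC7A11 have none. SLC38A7 has 1 copy, SLC7A1 has 3, and SLC6A8, which lay above Ctrl in both PRMT3-KD libraries, has 2 close together at the start of its 3′ UTR. The SLC38A7 site (chr16:58701120-58701126, GRCh37, minus strand) and the SLC6A8 sites (chrX:152960675-152960681 and chrX:152960688-152960694, plus strand) are shown because the same letters stand in carriers that lay on opposite sides of Ctrl, with the 7 bases in capitals.
SLC38A7 3′ UTR: cacctctggaCAGCTCAaatccagtcc
SLC6A8 3′ UTR, first site: tgtgacaactCAGCTCAcatcaccagc
SLC6A8 3′ UTR, second site: ctcacatcacCAGCTCAcctctggtag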

How the data were processed

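The data deposited by the authors are unnormalized read counts, whole numbers, for each gene in each library. Per the labels and the study's methods, reads were handled with CASAVA, aligned with TopHat to hg19 and counted with Cufflinks, with no versions, strand setting or annotation given in the sources used here. Of 15576 entries, 1 duplicate was removed. Total counts ranged from 24804250 to 29756313, which limits the precision of genes with few counts. Identifiers were matched to GENCODE 44 on GRCh37 (15560 of 15575). Libraries were grouped by their labels.

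Genes passing filterByExpr (minimum count 10, minimum total 15) were tested in R 4.3.3 with edgeR 4.0.16 (TMM, glmQLFit and glmQLFTest, all 4 libraries, no covariate), with Benjamini-Hochberg adjustment over the 13172 genes tested. One dispersion per gene serves both groups. CPM are on the TMM scale. The SE of a log2 fold change was obtained by dividing its size by the square root of F. Alternatives were DESeq2 1.42.0, limma-voom (limma 3.58.1) with a variance weight for each group, other scaling factors, filters and fold thresholds, the replicate number as a block, and each library left out in turn. Motifs, levels per length and figures were computed in Python 3.11.15 with NumPy 2.4.6, pandas 2.3.3 and matplotlib 3.10.9. The scripts were tested on simulated data.

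Values per library are given for carriers called, for the 10 with the highest Ctrl level per length, for SLC3A2 and its light chains, and for carriers called in an alternative. Other carriers are given by range or fold change. Genes of the pathway lists are named where called, and the exceptions are marked. The carriers, the lists and the motifs were chosen with earlier results of these data known.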

Additional observations from a re-analysis of the deposited data

How the results depend on the processing

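Carriers called lower numbered 4, and 6 with DESeq2, limma-voom or no fold threshold, 3 with library totals only and 2 over 2-fold. Carriers called higher numbered 1, but 2 with DESeq2 and 0 over 2-fold. With the replicate number as a block, 6 carriers were called lower and 1 higher, with SLC1A4 and SLC6A9 added (adjusted p = 0.0417 and 0.0496), and PRMT3 was at -3.115. The numbers pair no libraries by design, the deviations of same-numbered libraries had a correlation of 0.0222 across genes, and only 2 numbers are shared. Leaving out 1 library in turn gave 0 to 6 carriers lower and 0 to 3 higher. Both counts are 0 without a Ctrl library, when the spread comes from the PRMT3-KD libraries, and 6 and 3 without a PRMT3-KD library, when it comes from the Ctrl libraries. The lone library is assumed to vary like the other group. PRMT3 then ranged from -3.607 to -2.679. On the ATF4 list, the number called higher was 6 with DESeq2, 5 with limma-voom, 2 with the block and 0 with library totals, where 4 were lower. On the branched-chain, arginine, serine and creatine list, 3 (DESeq2), 4 (limma-voom), 2 (library totals) and 2 (block) were called lower, and 1 was called higher with DESeq2 and limma-voom. Of the other carriers, 2 were called lower with DESeq2 and limma-voom and 1 higher with DESeq2. With a library left out, the counts ranged from 0 to 9 lower and 0 to 9 higher (ATF4), 0 to 4 and 0 to 6 (mTORC1), 0 to 5 and 0 to 3 (glutamine enzymes), 0 to 6 and 0 to 1 (branched-chain and others), and 0 to 2 and 0 to 5 (other carriers). Log2 fold changes that changed sign were those of SLC6A6 (-0.069 with limma-voom, -0.035 with library totals, -0.075 with the block, and -0.59 to 0.44 with a library left out) and, over the libraries left out in turn, of SLC1A3 (-0.37 to 0.43), SLC3A2 (-0.79 to 0.49, and 0.016 without Ctrl library 1), SLC36A1 (-0.044 to 0.22), SLC38A3 (-3.21 to 0.40), SLC38A4 (-1.04 to 0.013) and SLC43A2 (-0.54 to 0.88). The low and high ends come from leaving out one or the other PRMT3-KD library. The cause was not tested. The log2 fold changes of the 5 carriers called kept their sign in each alternative.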
